A study of Mus musculus with 3 samples.

Results

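The 9 genes described here, Spi1, Cebpa, Cebpb, Cebpd, Cebpe, Irf8, Nr4a1, Klf4 and Maf, encode transcription factors that steer the myeloid branches of blood formation. They were taken by name from the 31053 genes counted in single cells of mouse neuroblastoma. Their levels were followed across the named classes of myeloid cells in each tumor. Neuroblastoma is a childhood tumor of the developing sympathetic nervous system. TH-MYCN mice model it by carrying a MYCN transgene under the tyrosine hydroxylase promoter, which is active in that lineage. All mice were heterozygous for the transgene, and 1 whole tumor was dissociated from each of 3 mice, aged 62, 79 and 63 days for tumors 1, 2 and 3. The tumors form a single group with no transgene-free controls, so the comparisons are between cell classes within tumors.

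Blood cells of the myeloid line are sorted into fates by small sets of transcription factors that act together and against each other. PU.1, the product of Spi1, opens the enhancers of nearly all myeloid genes, and the C/EBP proteins drive granulocyte and monocyte genes on top of it. IRF8 steers progenitors to monocytes and dendritic cells and away from neutrophils, KLF4 acts in monocyte formation, NR4A1 is needed for nonclassical monocytes, and MAF is a factor of resident macrophages.

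Promoter sequences were read for the members whose levels the results below turn on, from RefSeq on the build GRCm38.p6, which held entries for Cebpa, Cebpb, Irf8, Nr4a1 and Klf4. Each is the 250 bases before the start site, 5′ to 3′ on the strand of the gene, which is minus for Klf4 and plus for the others. Cebpb is shown because its transcript varied with the tumor and Nr4a1 because it was highest in nonclassical monocytes, and their capitals mark TGACG on either strand, the core of the site bound by CREB. Irf8 is shown because its transcript separated dendritic cells from neutrophils, and its capitals mark TTCNNNGAA, the site bound by STAT proteins after interferon gamma. The windows are chr2:167688665-167688914 for Cebpb, chr15:101266596-101266845 for Nr4a1 and chr8:120736108-120736357 for Irf8.
Cebpb: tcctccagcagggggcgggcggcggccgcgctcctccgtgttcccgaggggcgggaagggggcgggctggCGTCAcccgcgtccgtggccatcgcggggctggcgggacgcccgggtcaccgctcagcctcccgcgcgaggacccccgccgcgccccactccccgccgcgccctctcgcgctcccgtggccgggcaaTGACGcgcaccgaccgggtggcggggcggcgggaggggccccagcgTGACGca
Nr4a1: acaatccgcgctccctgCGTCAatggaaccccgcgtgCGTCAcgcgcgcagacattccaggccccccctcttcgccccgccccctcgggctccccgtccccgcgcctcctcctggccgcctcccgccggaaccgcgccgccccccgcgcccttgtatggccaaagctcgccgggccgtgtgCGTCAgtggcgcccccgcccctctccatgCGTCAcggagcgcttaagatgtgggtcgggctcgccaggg
Irf8: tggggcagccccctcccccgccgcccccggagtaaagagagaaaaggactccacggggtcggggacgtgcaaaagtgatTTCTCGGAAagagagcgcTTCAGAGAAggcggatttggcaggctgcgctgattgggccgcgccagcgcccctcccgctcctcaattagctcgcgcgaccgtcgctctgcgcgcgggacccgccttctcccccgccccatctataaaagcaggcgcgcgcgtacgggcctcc
The Nr4a1 window held 4 matches of TGACG, at positions -233, -213, -69 and -40 from the start site. The Cebpb window held 3, at -180, -53 and -7. TGACG was present in 17.8% of the 32851 promoters of the same length, and 0.688% held at least 3 matches. The Klf4 window held 1 match and the Cebpa window none. The Irf8 window shown held 2 matches of TTCNNNGAA, at -171 and -153, against 7.02% of promoters with a match and 0.317% with at least 2. RefSeq holds a further Irf8 promoter, chr8:120738389-120738638, with 0 matches. The match at -171 overlaps the GGAA at -166 that is the core of sites for PU.1 and its relatives, 4 letters found in 93.4% of the promoters. Further motifs were searched. TGACGTCA, the full site of CREB, GAGGAA for PU.1 and TTGCGCAA for C/EBP proteins had 0 matches in every window. They were found in 1.55%, 23.3% and 0.164% of the promoters. CCAAT was found in the Irf8 window shown, and TATAAA there and in the Cebpa window. All of these are matches of letters, and no binding was measured.

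Droplet capture gave each RNA molecule a unique molecular identifier (UMI), and the authors kept 1914, 1221 and 2515 cells in tumors 1, 2 and 3, with medians of 4282.5, 1594 and 1816 UMIs. Between 0 and 3 kept barcodes were shared by any pair of tumors. Clusters of cells were named from fixed markers, with the 9 members held out of the clustering. Neutrophil-like cells (236, 55 and 22 in the 3 tumors) carried all 8 of their markers, classical monocyte-like cells (266, 15 and 27) 6 of 8 and nonclassical monocyte-like cells (212, 20 and 41) 9 of 9. Markers were counted over the pooled cells of a cluster. The summed neutrophil markers of neutrophil-like cells were at 149065, 139004 and 45200 counts per 1e6 UMIs in tumors 1, 2 and 3. C1q macrophage-like cells (108, 39 and 93) came from a cluster of deeply sequenced cells and a shallow one, described separately below. The dendritic-like cells (99, 4 and 24) carried 8 of 8 plasmacytoid markers, and no cluster of conventional dendritic cells was found, so the class stands for plasmacytoid cells alone. Markers of other dendritic cells were present in classical monocyte-like cells, in counts per 1e6 UMIs. Over the tumors their sums ran from 156 to 293 (conventional 1), 78.1 to 326 (conventional 2) and 15.6 to 651 (migratory). The classes also differed in depth, with medians from 2228 UMIs in C1q macrophage-like to 10463.5 in classical monocyte-like cells, and the summed level of 8 tumor cell markers was 20.6 to 60.8 counts per 1e6 UMIs in the classes of tumor 1 and 563 to 1366 in those of tumors 2 and 3. The classes are cut from the other genes of the same cells, so the comparisons below describe how these factors differ among classes and do not test the classes.

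Levels are given as CPM, the UMIs of a gene among 1e6 UMIs of the class in that tumor. Sums of at least 10 cells entered edgeR's quasi-likelihood fit of 4273 genes, with Benjamini-Hochberg adjusted p-values called under 0.05, which left out the 4 dendritic-like cells of tumor 2. Of the 9 members, 8 passed its filter on low counts and Cebpe did not. An unnamed cluster of 183 cells (129, 31 and 23 in tumors 1, 2 and 3) passed too few markers for a name and entered no sum. Its cells held myeloid transcripts, with Spi1 at 465, 493 and 488 CPM and C1qb at 833, 2215 and 2325 CPM. Cebpb was at 1470, 27.9 and 253 CPM there, the value of tumor 2 from 3 UMIs. Log2 fold changes are given with their standard error (SE). Where tumor 1 or tumor 3 was left out, the dendritic-like class kept 1 sum and so had no replicate of its own.

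Against the mean of the other myeloid classes, neutrophil-like cells were higher in Spi1, Cebpb and Cebpd and lower in Irf8 and Klf4, that is in 3 and 2 of 8 members, where 14.2% of all genes tested were higher and 7.14% lower. Dendritic-like cells were higher in Irf8 and lower in Spi1 and Maf, where 5.1% of all genes were higher and 3.74% lower. C1q macrophage-like cells were higher in Cebpa and Maf and lower in none, beside 5.59% and 1.31% of all genes. Nonclassical monocyte-like cells were higher in Nr4a1 and Klf4 and lower in none, beside 3.02% and 0.608% of all genes. For classical monocyte-like cells edgeR called 0 members, beside 1.01% of all genes higher and 0% lower. Klf4 and Maf were past an unadjusted p of 0.05 there, and DESeq2 called both.

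**Figure D1:**
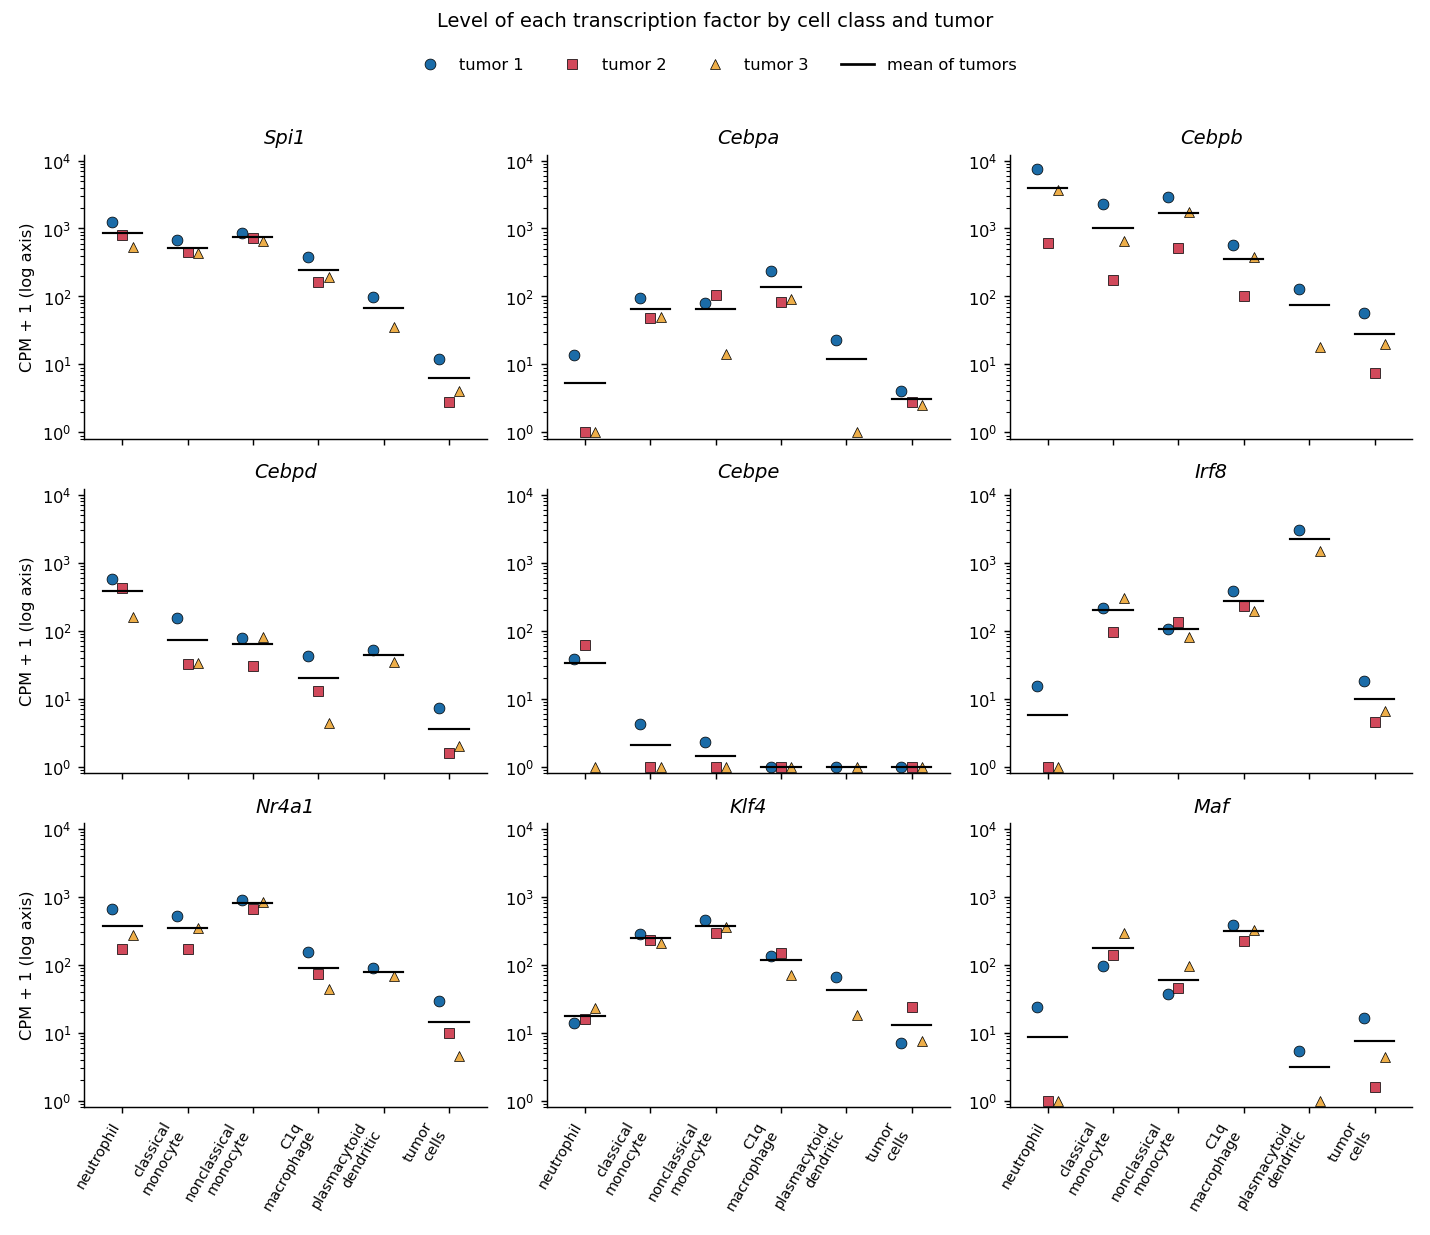
Level of each of the 9 transcription factors (CPM + 1, log axis) in the 5 myeloid classes and in tumor cells, with 1 point per tumor and a line at the mean of the tumors. Irf8 peaks in plasmacytoid dendritic cells, at 3003 and 1499 CPM, and Cebpb in neutrophils, where tumor 2 lies lowest.

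In neutrophil-like against classical monocyte-like cells, Irf8, Klf4 and Maf were lower and no member higher, where 4.84% of all genes were lower and 6.04% higher. No member was called between nonclassical and classical monocyte-like cells by edgeR or DESeq2, where edgeR called 0.0234% of genes higher and 0.257% lower, and Maf alone had an unadjusted p under 0.05, at 0.0283. In C1q macrophage-like against classical monocyte-like cells edgeR and DESeq2 called 0 members, beside 0.936% of genes higher and 0.14% lower, and Nr4a1 alone had an unadjusted p under 0.05, at 0.0207. Because the classes of a tumor come from the same animal, each comparison was also fitted with the tumor as a replicate block, and the blocked value is given wherever it changes a call.

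**Figure D2:**
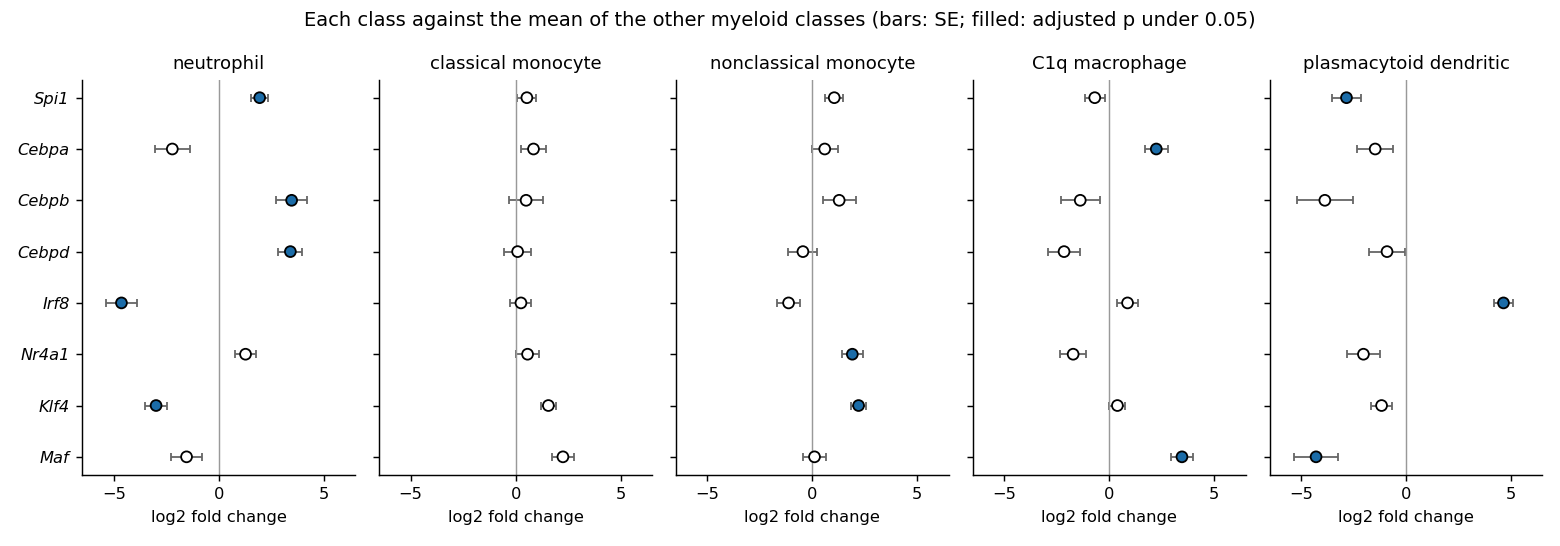
Log2 fold change of the 8 tested members in each class against the mean of the other myeloid classes, with SE bars and filled points where the adjusted p is under 0.05. Irf8 is at -4.64 in neutrophils and 4.64 in plasmacytoid dendritic cells.

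Spi1 (ENSMUSG00000002111.8, chr2:91082390-91115756 on GRCm38, plus strand) encodes PU.1. Its level was 1228, 795 and 538 CPM in the neutrophil-like cells of tumors 1, 2 and 3, and 859, 723 and 661 CPM in nonclassical monocyte-like cells. It was 679, 453 and 431 CPM in classical monocyte-like cells, 374, 161 and 195 CPM in C1q macrophage-like cells, and 98.8 and 34.1 CPM in the dendritic-like cells of tumors 1 and 3. The ranges of the 2 monocyte classes and the neutrophils overlap in part, whereas each of the lower classes lies wholly below the one above it. Neutrophil-like cells were higher than the mean of the other classes by a log2 of 1.95 (SE 0.42, adjusted p = 0.0037) and dendritic-like cells lower, at -2.83 (SE 0.69, adjusted p = 0.0181). The neutrophil call was kept in 14 of 14 alternative analyses. The dendritic call was lost without tumor 2 (-3.12, adjusted p = 0.0779) and with classes set cell by cell from marker UMIs (-2.20, adjusted p = 0.0561). Without tumor 3, with 1 dendritic sum left, the fold was -2.63 and was not called. With the tumor as a block, nonclassical monocyte-like cells were also higher, by 1.21 (SE 0.27, adjusted p = 0.00409), which also held without tumor 1 (1.59, adjusted p = 0.00816), and neutrophil-like were higher than classical monocyte-like cells, by 0.97 (adjusted p = 0.0483).

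The C/EBP family differed from member to member. Cebpb (ENSMUSG00000056501.3, chr2:167688915-167690418, plus strand), a factor of emergency granulopoiesis and of inflammatory macrophage genes, was at 7603, 602 and 3629 CPM in neutrophil-like cells. Its levels were 2856, 516 and 1770 CPM in nonclassical and 2276, 172 and 643 CPM in classical monocyte-like cells, 572, 101 and 376 CPM in C1q macrophage-like cells, and 129 and 17.0 CPM in dendritic-like cells. Every pair of neighbours in this order overlaps, with a wide spread over the tumors in each class. The neutrophil excess of Cebpb was 3.47 (SE 0.75, adjusted p = 0.0037) and was called in 14 of 14 alternatives. With the tumor as a block this excess was 3.27 (SE 0.27), and Cebpb was then also higher in nonclassical monocyte-like cells (1.71, adjusted p = 0.00037), lower in dendritic-like cells (-4.56, adjusted p = 2.4e-06) and higher in neutrophil-like than in classical monocyte-like cells (2.23, adjusted p = 0.000265). The dendritic difference was called without tumor 2 as well (-4.48, adjusted p = 0.04).

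Cebpd (ENSMUSG00000071637.5, chr16:15887286-15891031, plus strand), an acute-phase relative of Cebpb, was at 566, 424 and 157 CPM in neutrophil-like cells, all above the highest value elsewhere, 150.0 CPM in the classical monocyte-like cells of tumor 1. The other classes ran from 3.4 to 150.0 CPM and overlapped each other. The neutrophil excess was 3.41 (SE 0.57, adjusted p = 0.000546), and it was called in 14 of 14 alternatives. Against classical monocyte-like cells it was 2.65 (SE 0.83) with an adjusted p of 0.0543, and 2.76 with an adjusted p of 0.000439 when the tumor was a block. Leaving out tumor 1 gave 3.28 (adjusted p = 0.00986). With the block Cebpd was also lower in C1q macrophage-like cells (-2.18, adjusted p = 0.00278), as it was without tumor 1 (-3.02, adjusted p = 0.0479). Outside the myeloid classes Cebpd was at 346, 642 and 152 CPM in fibroblast or perivascular cells, of which tumor 2 had 8.

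Cebpa (ENSMUSG00000034957.10, chr7:35119293-35121928, plus strand), which commits progenitors to the granulocyte and monocyte line, had its highest mean in the macrophages. C1q macrophage-like cells had 233, 83.3 and 90.6 CPM, nonclassical monocyte-like cells 79.7, 103 and 13.4 CPM, and classical monocyte-like cells 94.3, 46.9 and 48.8 CPM. Neutrophil-like cells had 12.7 CPM in tumor 1, from 9 UMIs, and 0 UMIs in tumors 2 and 3, where the exact Poisson interval reaches 27.4 and 82.6 CPM. Dendritic-like cells had 21.7 and 0 CPM. The macrophage excess was 2.24 (SE 0.55, adjusted p = 0.0195), called in 9 of 14 alternatives. It was not called without tumor 2 (2.36, adjusted p = 0.14) or without tumor 3 (2.22, adjusted p = 0.0653). Nor was it called without integration (1.84, adjusted p = 0.0911), on counts corrected for ambient RNA (2.36, adjusted p = 0.0526) or with classes set cell by cell (1.86, adjusted p = 0.14). Cebpa was at -2.21 (SE 0.84, adjusted p = 0.0741) in neutrophil-like cells, and with the block it was lower there (-2.30, adjusted p = 0.00425), lower than in classical monocyte-like cells (-2.61, adjusted p = 0.00553) and lower in dendritic-like cells (-1.77, adjusted p = 0.0311).

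Cebpe (ENSMUSG00000052435.7, chr14:54710360-54712174, minus strand), which drives the genes of the secondary granules as granulocytes mature, gave 86 UMIs in 26 of the 5650 kept cells. The neutrophil-like cells held 34 of these in 13 cells, 36.8 CPM in tumor 1 and 59.4 CPM in tumor 2, and 0 UMIs of 44646 in tumor 3, which allows up to 82.6 CPM by the exact Poisson interval. Classical monocyte-like cells held 10 UMIs in 9 cells, nonclassical monocyte-like cells 2 in 2, and C1q macrophage-like, dendritic-like and tumor cells 0. The neutrophil UMIs sat with the granule genes. The 42 neutrophil-like cells with a UMI of Ltf, Camp or Ngp, which encode secondary granule proteins, held 31 Cebpe UMIs (140 CPM, exact Poisson 95% interval 94.9 to 198), and the other 271 held 3 (4.5 CPM, 0.93 to 13.2). Cebpb ran the other way, at 3976 CPM in the cells with and 8801 CPM in the cells without such a UMI in tumor 1, and at 344 and 738 CPM in tumor 2. Cebpd was at 382 and 627 CPM in tumor 1 and at 237 and 522 CPM in tumor 2. Outside the C/EBP family, Nr4a1 was at 370 and 749 CPM in tumor 1 and at 86.1 and 216 CPM in tumor 2. Spi1 was at 849 and 1353 CPM in tumor 1 and at 796 and 794 CPM in tumor 2. The cells with such a UMI were also deeper, with medians of 4544 against 2489 UMIs in tumor 1 and 2517 against 2124.5 in tumor 2. All 42 came from tumors 1 and 2, and this split was drawn from the cells' own counts, so it is a description without a test. A further 39 UMIs of Cebpe lay in 1 cell of the unnamed cluster, 1 of 10 cells there with at least 3 UMIs of mast cell or basophil markers.

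Irf8 (ENSMUSG00000041515.10, chr8:120736358-120756694, plus strand) set dendritic-like cells apart from all others. It was at 3003 and 1499 CPM there in tumors 1 and 3, and at 1191 CPM in the 4 such cells of tumor 2, which were not in the fit. C1q macrophage-like cells had 382, 232 and 191 CPM, classical monocyte-like cells 214, 93.8 and 301 CPM, and nonclassical monocyte-like cells 103, 133 and 80.1 CPM, with overlap between neighbours. Neutrophil-like cells had 14.1 CPM in tumor 1, from 10 UMIs, and 0 UMIs in tumors 2 and 3. The dendritic excess was 4.64 (SE 0.46, adjusted p = 1.41e-05), and was called in 14 of 14 alternatives. Those without tumor 1 and without tumor 3 had 1 dendritic sum each. The neutrophil deficit was -4.64 (SE 0.75, adjusted p = 0.000445) against the mean, called in 13 of 14 alternatives, and -3.91 (SE 0.80, adjusted p = 0.00624) against classical monocyte-like cells. The latter was lost without tumor 2 (-3.74, adjusted p = 0.0819) and without tumor 3 (-3.50, adjusted p = 0.0725). With classes set cell by cell from marker UMIs both neutrophil folds shrank and neither was called, at -2.15 (adjusted p = 0.0868) against the mean and -1.48 (adjusted p = 0.408) against classical monocyte-like cells. The part of conventional or migratory dendritic cells in the classical monocyte-like values of Irf8 was not tested. Natural killer cells, which also use IRF8, had 1051 CPM in the 32 cells of tumor 1, and B cells had 333, 120 and 208 CPM. The transcript overlaps Gm20388 on the same strand, so that reads of these genes can be confused.

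Klf4 (ENSMUSG00000003032.8, chr4:55527143-55532466, minus strand) separated the monocytes from the neutrophils. It was at 458, 295 and 354 CPM in nonclassical and 285, 234 and 212 CPM in classical monocyte-like cells, and at 12.7, 14.9 and 22.4 CPM in neutrophil-like cells, from 9, 2 and 1 UMIs. C1q macrophage-like cells had 135, 149 and 70.5 CPM and dendritic-like cells 65.2 and 17.0 CPM. The nonclassical range lies wholly above the classical, the classical above the C1q and the C1q above the dendritic, while the dendritic and neutrophil ranges overlap. Nonclassical monocyte-like cells were higher than the mean of the other classes by 2.20 (SE 0.35, adjusted p = 0.00271). This call was lost without tumor 2 (2.38, adjusted p = 0.0831) or tumor 3 (2.08, adjusted p = 0.106), and with classes set cell by cell (1.89, adjusted p = 0.0615). Neutrophil-like cells were lower by a log2 of -2.99 (SE 0.54, adjusted p = 0.000991), lost without tumor 1 (-2.56, adjusted p = 0.0643), and were at -3.64 (SE 0.59, adjusted p = 0.00185) against classical monocyte-like cells, lost without tumor 2 (-3.55, adjusted p = 0.0758). Classical monocyte-like cells were at 1.56 (SE 0.37, adjusted p = 0.0596), and with the block they were higher (1.63, adjusted p = 0.00172), as they were without tumor 1 (1.99, adjusted p = 0.0289). With the block Klf4 was also lower in dendritic-like cells (-1.22, adjusted p = 0.0496). Endothelial cells, where KLF4 is also at work, had 117, 282 and 164 CPM.

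Nr4a1 (ENSMUSG00000023034.7, chr15:101254269-101274795, plus strand), an orphan nuclear receptor that is both an immediate early gene and the factor on which nonclassical monocytes depend, was at 889, 664 and 848 CPM in nonclassical monocyte-like cells. These lie above every other class: 655, 171 and 269 CPM in neutrophil-like cells, 518, 172 and 342 CPM in classical monocyte-like cells, 152, 71.4 and 43.6 CPM in C1q macrophage-like cells, and 88.0 and 68.1 CPM in dendritic-like cells. The nonclassical excess was 1.90 (SE 0.50, adjusted p = 0.0479), at the edge of the threshold, and was called in 7 of 14 alternatives. It was lost without tumor 2 (1.85, adjusted p = 0.348) and without tumor 3 (1.64, adjusted p = 0.551). The call was also lost with DESeq2 size factors (adjusted p = 0.0673), at clustering resolution 0.6 (0.382) and without integration (0.2). Counts corrected for ambient RNA (0.0862) and classes set cell by cell (0.392) lost it too. With the block the excess was 2.23 (SE 0.31, adjusted p = 5.06e-05). Directly against classical monocyte-like cells the difference was 1.07 (SE 0.68, adjusted p = 1), although the 3 tumors all had the higher value in the nonclassical cells. With the block Nr4a1 was also higher in neutrophil-like cells (1.14, adjusted p = 0.00984) and lower in dendritic-like (-2.40, adjusted p = 0.00183) and C1q macrophage-like cells (-1.67, adjusted p = 0.00385), the last also against classical monocyte-like cells (-1.90, adjusted p = 0.0113). Both macrophage differences were called without tumor 1 too (-1.81, adjusted p = 0.0158, and -2.12, adjusted p = 0.0243).

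Immediate early genes, which dissociation of a tissue can raise within minutes, bear on Nr4a1. The summed level of 14 such genes, Nr4a1 not among them, was 21204, 11346 and 11446 CPM in neutrophil-like cells, 8568, 6903 and 7246 CPM in nonclassical and 9296, 6548 and 6724 CPM in classical monocyte-like cells. It was 4806, 7197 and 3681 CPM in C1q macrophage-like cells, and 4414 and 4464 CPM in the dendritic-like cells of tumors 1 and 3. In neutrophil-like cells 10 of the 14 were higher and 1 lower than the mean of the other classes, with a median log2 of 1.56 against 0.04 over all genes, whereas in nonclassical monocyte-like cells none was called and the median was -0.005. The mean that nonclassical cells are set against includes the neutrophil-like cells, where these genes were high. Ier3 (3.74, adjusted p = 5.13e-05), Egr1 (3.38), Dusp1 (3.36) and Junb (3.02) had the largest neutrophil folds, and Hspa1a was the gene that was lower (-3.71, adjusted p = 0.00449). The share of dissociation in the neutrophil and nonclassical values, those of Nr4a1 included, was not tested.

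Maf (ENSMUSG00000055435.6, chr8:115682942-115707794, minus strand) had its highest mean in C1q macrophage-like cells. C1q macrophage-like cells had 384, 226 and 319 CPM, classical monocyte-like cells 95.9, 141 and 293 CPM, and nonclassical monocyte-like cells 35.6, 44.2 and 93.5 CPM. Neutrophil-like cells had 22.6 CPM in tumor 1, from 16 UMIs, and dendritic-like cells 4.3 CPM, with 0 UMIs in the other tumors. The macrophage and classical ranges overlap, and both lie above the remaining classes. The overlap came from the 27 classical monocyte-like cells of tumor 3. Their summed C1q macrophage markers were at 2776 CPM and their classical markers at 2247 CPM. In tumor 1 these sums were 532 and 6071 CPM, and in tumor 2 they were 1891 and 7798 CPM. The part of macrophages in the classical class of tumor 3 was not tested. The macrophage excess was 3.47 (SE 0.50, adjusted p = 0.000397), called in 14 of 14 alternatives, while against classical monocyte-like cells it was 0.97 (adjusted p = 0.841) and was called in 0 of 13. Dendritic-like cells were lower (-4.28, SE 1.04, adjusted p = 0.018), a call lost with classes set cell by cell (-2.05, adjusted p = 0.28). The fold was -5.53 without tumor 1, where the 1 dendritic sum left had 0 UMIs of Maf. Without tumor 3 it was -3.97, also with 1 dendritic sum left, and neither was called. Neutrophil-like were lower than classical monocyte-like cells by a log2 of -3.03 (SE 0.78, adjusted p = 0.021), lost without tumor 2 (-2.64, adjusted p = 0.2) and without tumor 3 (-2.24, adjusted p = 0.251). This call was also lost without integration (-2.15, adjusted p = 0.142) and with classes set cell by cell (-3.26, adjusted p = 0.0513). Classical monocyte-like cells were at 2.25 (SE 0.54, adjusted p = 0.0657), and with the block they were higher (2.10, adjusted p = 0.00611), as without tumor 1 (4.24, adjusted p = 0.00526). T cells, which use MAF as well, had 231, 36.6 and 118 CPM.

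The C1q macrophage-like cells were made of a cluster of 111 cells with a median of 11899 UMIs and a cluster of 129 cells with a median of 1340 UMIs, both with C1qa, C1qb and Apoe. Maf was at 400, 275 and 444 CPM in the deep cluster in tumors 1, 2 and 3 and at 67.0, 53.8 and 42.9 CPM in the shallow one. The shallow values came from 4, 2 and 4 UMIs, with exact Poisson intervals that reach 172, 194 and 110 CPM. Spi1 was at 376, 206 and 264 CPM in the deep cluster, and in the shallow cluster at 335 CPM in tumor 1, 0 of 37183 UMIs in tumor 2, which allows up to 99.2 CPM by the exact Poisson interval, and 42.9 CPM in tumor 3, from 4 UMIs. Irf8 stood at 397, 298 and 254 CPM against 83.7, 0 and 53.7 CPM, the latter from 5, 0 and 5 UMIs. Cd5l and Slc40a1, genes of macrophages that take up red cells and iron, had no such common order. Cd5l was at 394, 2360 and 132 CPM in the deep and 435, 1210 and 719 CPM in the shallow cluster, and Slc40a1 at 176, 1130 and 664 CPM in the deep and 402, 350 and 172 CPM in the shallow cluster. The summed tumor cell markers were at 37.3, 321 and 654 CPM in the deep and 201, 1533 and 2212 CPM in the shallow cluster, and the part of tumor cell RNA in the shallow cluster was not tested. Without the shallow cluster the macrophage excess of Maf was 3.93 (SE 0.46, adjusted p = 2.34e-05) and that of Cebpa 2.60 (SE 0.49, adjusted p = 0.00169).

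**Figure D3:**
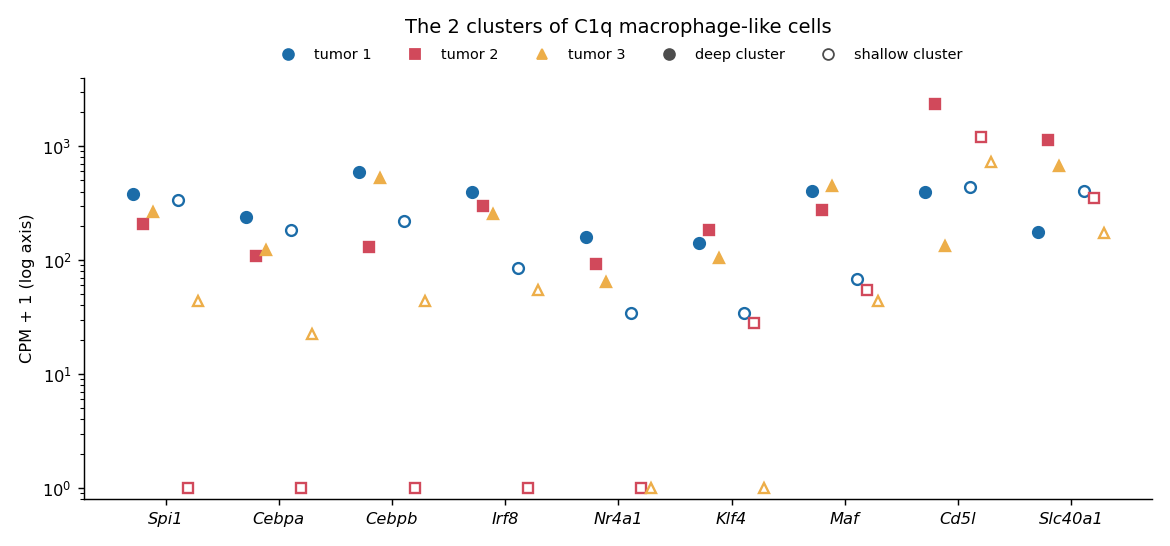
Levels (CPM + 1, log axis) of 7 members and of Cd5l and Slc40a1 in the deep cluster (filled) and the shallow cluster (open) of C1q macrophage-like cells, with 1 point per tumor. Maf is at 275 to 444 CPM in the deep and 42.9 to 67.0 CPM in the shallow cluster, the latter from 2 to 4 UMIs per tumor.

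Cebpb differed between tumors in every class with 3 sums. In tumor 1 it was 12.6 times its level in tumor 2 in neutrophil-like cells, 13.2 times in classical monocyte-like cells, 5.53 times in nonclassical monocyte-like cells and 5.65 times in C1q macrophage-like cells. On counts corrected for ambient RNA by the authors the ratios were 12.7, 9.57, 5.25 and 16.4, so that the value in C1q macrophage-like cells depends on that correction. The pattern was singled out after its values were seen and carries no test, since each tumor is 1 animal. Xist, the RNA of the inactive X chromosome, also separated tumor 2. It had 0 UMIs in all 4 classes of tumor 2, against 147 to 959 CPM in tumor 1 and 89.6 to 888 CPM in tumor 3. In tumor 3 Cebpb lay between the other tumors in all 4 classes. Cebpd had a ratio of 1.34 in neutrophil-like cells, and Spi1 ratios of 1.19 to 2.33. Nr4a1 was at 3.83 in neutrophil-like, 3.01 in classical, 1.34 in nonclassical and 2.13 in C1q macrophage-like cells. The other members compared ran from 0.907 (Klf4) to 2.80 (Cebpa), both in C1q macrophage-like cells. Among genes with an expected 10 or more UMIs in tumor 2 at their tumor 1 level, median ratios were 1.13 to 1.68 by class. From 0.233% to 1.89% of these genes had at least the ratio of Cebpb. Tumor 2 came from the oldest mouse, and the labels give no sex, so that age, sex, animal and handling cannot be told apart.

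**Figure D4:**
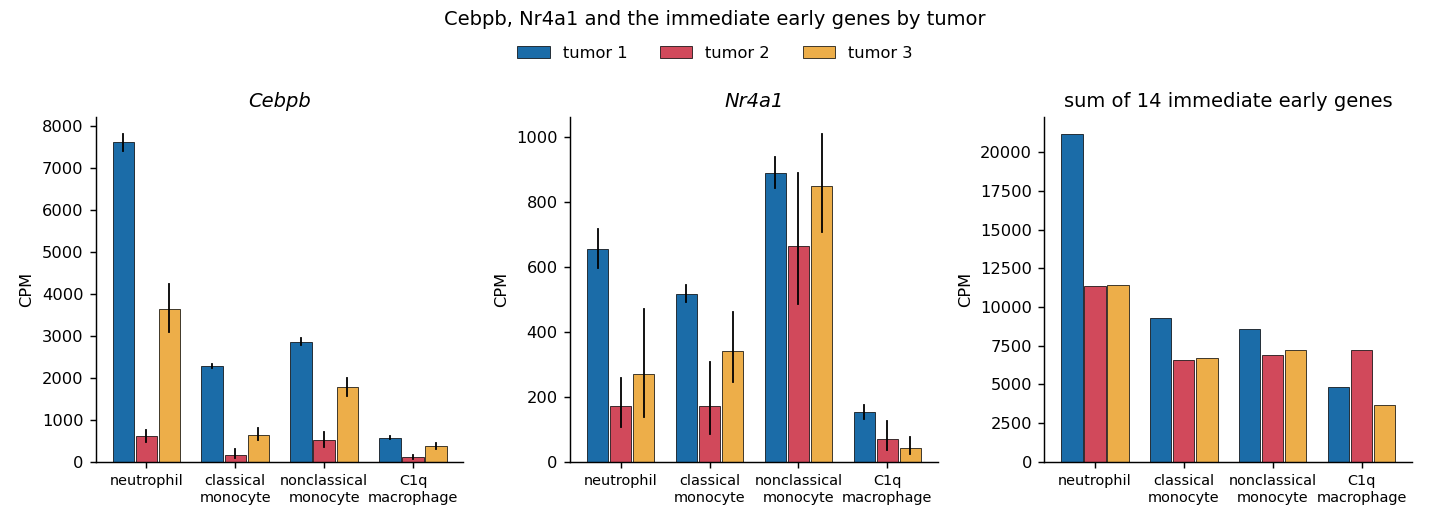
Level (CPM) of Cebpb and Nr4a1, with exact Poisson 95% intervals for counting error, and summed level of 14 immediate early genes in 4 myeloid classes, with 1 bar per tumor. Cebpb in tumor 2 is the lowest in each class, from 101 to 602 CPM, while the summed immediate early genes of tumor 2 lie close to those of tumor 3 except in C1q macrophages.

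Shares of cells with a UMI were compared after thinning each cell to 500 UMIs, because depth alone sets much of such a share. Cebpb was then found in 80.8% of neutrophil-like cells (exact binomial 95% interval 76.0 to 85.0), 65.6% of nonclassical and 55.8% of classical monocyte-like cells. It was found in 13.8% of C1q macrophage-like cells and 1.22% of the 3290 tumor cells. Tumor cells are set beside the classes as a rough guide to free RNA, and their own transcription of these genes was not tested. Most of them came from tumors 2 and 3. The pooled shares of the myeloid classes are weighted to tumor 1, which gave 236 of the 313 neutrophil-like cells. In tumors 1, 2 and 3 Cebpb was found in 94.1%, 23.6% and 81.8% of neutrophil-like, 71.7%, 25% and 53.7% of nonclassical and 62.0%, 13.3% and 18.5% of classical monocyte-like cells, so that in tumor 2 the neutrophils did not stand above the nonclassical monocytes. Irf8 was found in 73.2% of dendritic-like cells (64.6 to 80.7) and in 0 of 313 neutrophil-like cells, which allows a share of up to 1.17% by the exact interval, beside 0.608% of tumor cells. Klf4 was found in 20.1% of nonclassical and 13.96% of classical monocyte-like cells and in 0.639% of neutrophil-like and 0.456% of tumor cells. The Klf4 share in neutrophils lay near that in tumor cells. Unthinned, Klf4 shares were 74.7% and 65.6% of the monocyte-like cells, 2.88% of neutrophil-like and 1.91% of tumor cells, with median depths of 5434, 10463.5, 2464 and 1632 UMIs. Spi1 was found in 49.2% of neutrophil-like cells after thinning (54.2%, 36.4% and 27.3% by tumor), in 33.7% of nonclassical monocyte-like cells (34.4%, 25% and 34.1%), and in 0.122% of tumor cells, so that the order turned in tumor 3. Nr4a1 was found in 32.2% of nonclassical and 18.5% of classical monocyte-like cells, with pooled intervals of 26.7 to 38.1 and 14.3 to 23.3 and the higher share in nonclassical cells in each of the 3 tumors. Maf was at 7.08% in C1q macrophage-like and 7.47% in classical monocyte-like cells, with intervals that nearly coincide. Intervals cover counting error in the pooled cells only, and cells of a tumor are not replicates.

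**Figure D5:**
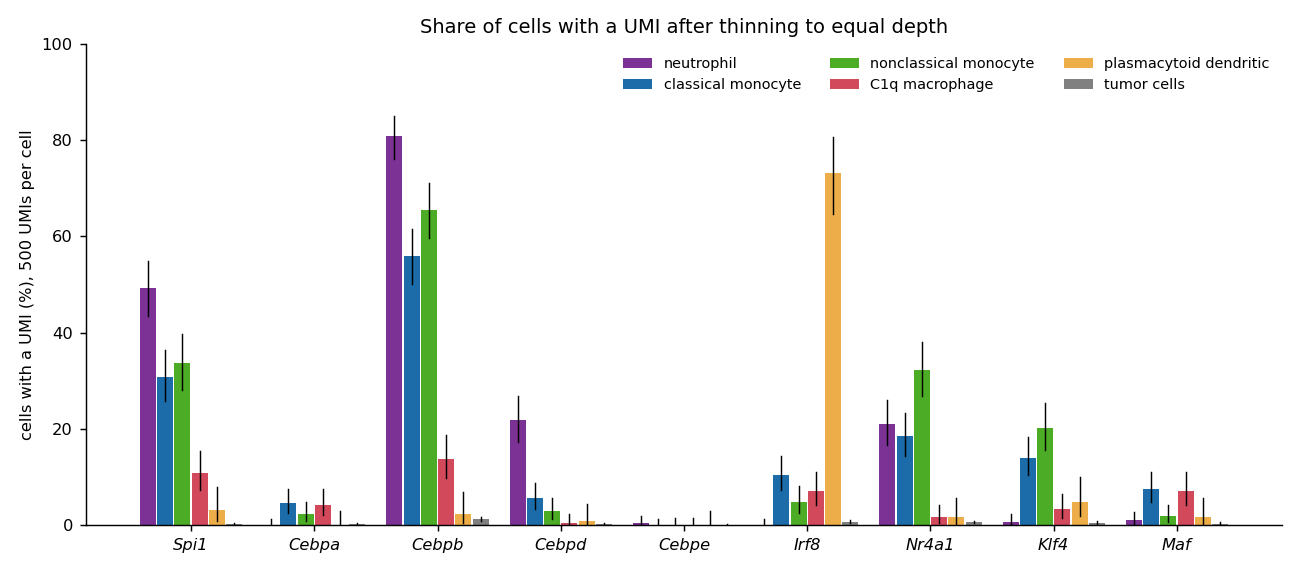
Share of cells (%) with at least 1 UMI of each member in the 5 myeloid classes and in tumor cells, after each cell was thinned to 500 UMIs. Bars are the shares and lines their exact binomial 95% intervals over pooled cells, weighted to tumor 1 in the myeloid classes. The pooled shares of Cebpb in neutrophils (80.8%, but 23.6% in tumor 2) and of Irf8 in plasmacytoid dendritic cells (73.2%) stand highest.

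The members followed each other in groups over the 14 sums of classes and tumors. Pearson's r of log2 CPM was 0.89 between Spi1 and Cebpb, 0.82 between Spi1 and Nr4a1, and 0.85 between Cebpa and Maf, and it was -0.63 between Spi1 and Irf8. These sums share tumors and depth, so the coefficients are descriptions. Among 4251 genes with a mean of at least 20 CPM, those most like Maf included Hmox1 (0.95), which breaks down heme, and Itgb5 (0.95). Those most like Irf8 were Ppfia4 (0.98), Ctsh (0.95) and Ssr1 (0.93). Klf4 was nearest to Ear2 (0.95), Cd83 (0.94) and Pou2f2 (0.94), Cebpb to Dok3 (0.94), Myo1f (0.94) and Itgam (0.94), and Spi1 to Slfn2 (0.97), Fxyd5 (0.97) and Emilin2 (0.97). Nr4a1 was nearest to Msn (0.95), Il17ra (0.92) and Ywhaz (0.92), Cebpd to Lyst (0.93), Sorl1 (0.92) and Srgn (0.92), and Cebpa to Lamp1 (0.95), Anxa4 (0.93) and Lrp1 (0.92).

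Of 30 other transcription factors of myeloid cells, 21 were tested. In neutrophil-like cells 3 of them were higher, a share near the 14.2% of all genes, Nfe2 (4.82, adjusted p = 1.84e-05), Ets2 (4.26) and Stat3 (1.58), the last a mediator of granulocyte colony-stimulating factor. Another 7 were lower, among them Nr1h3 (-4.42) and Mef2c (-3.10), and Spic, a factor of red pulp macrophages, had 0 UMIs in the neutrophil-like cells of all 3 tumors. The list's median was -0.28 against 0.04 over all genes. C1q macrophage-like cells were higher in 3, among them Spic (4.06, adjusted p = 0.00122) and Nr1h3 (2.17, adjusted p = 0.00533), and lower in Nfe2 (-4.21). Nonclassical monocyte-like cells were higher in 4 and lower in none, with Spic (3.51), Pou2f2 (2.85, adjusted p = 0.000126), Nr1h3 (2.04) and Id2 (2.03). Dendritic-like cells were higher in 3, Mef2c (3.93), Bcl11a (3.79, adjusted p = 1.41e-05) and Tcf4 (2.97), the last the factor that sets plasmacytoid fate, and lower in 4, among them Ets2, Id2 and Pou2f2. Tcf4 and Bcl11a are also transcripts of the tumor cells here, at 644 to 972 and 102 to 189 CPM.

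Of 10 secondary and tertiary granule genes, 9 were tested and 8 were higher in neutrophil-like cells, with a median log2 of 6.78. The list's summed level did not follow this, at 16183, 20210 and 1478 CPM in neutrophil-like and 18514, 12237 and 4925 CPM in classical monocyte-like cells, most of the latter from Lyz2, the lysozyme shared by granulocytes and macrophages, at 17797, 11846 and 4689 CPM. Camp was at 2682 and 6100 CPM in the neutrophil-like cells of tumors 1 and 2 and at 0 CPM in tumor 3, and Ngp at 3552, 4859 and 0 CPM, whereas Lcn2 was at 3745, 3864 and 515 CPM. The tumor whose neutrophil-like cells lacked Cebpe UMIs was thus also the one without UMIs of Camp and Ngp, over 22 cells. Of 9 colony-stimulating factor and other receptors, all tested, 4 were higher in neutrophil-like cells, Cd14 (4.4, adjusted p = 4.03e-05), Tnfrsf1a (2.51), Itgam (2.42) and Csf2rb (1.69). Csf1r, the receptor that keeps monocytes and macrophages alive, was higher in nonclassical monocyte-like (2.09, adjusted p = 0.00546) and C1q macrophage-like cells (1.66, adjusted p = 0.014). In dendritic-like cells Csf2rb2 was higher (2.39, adjusted p = 0.0331), and 4 were lower, Csf1r (-4.03), Itgam (-3.84), Cd14 (-3.75) and Csf2ra (-2.33). These lists were drawn up with earlier results of the same tumors known, and their counts are not independent evidence.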

How the data were processed

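The authors deposited raw UMI counts per gene and barcode for each tumor, and a table on a natural log scale (the log of 1 plus a count corrected for ambient RNA) for the barcodes left after their removal of doublets and of barcodes outside limits on coverage, genes and mitochondrial share. The submitters' processing notes name Cell Ranger 3.1.0, Seurat 3.1.5 and mm10. Raw counts of the kept barcodes were used, and no further doublet caller was run. With 72 genes, members included, held out, tumors were integrated and clustered in Seurat 5.3.0 (2000 variable genes, 30 dimensions, resolution 1). A cluster was named where at least 3 markers, and at least 50% of the list, were 2-fold higher and found in 10% of its cells.

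Counts were summed per tumor and class and tested with edgeR 4.0.16 (TMM, filterByExpr) in R 4.3.3, after a run on simulated data with known changes. DESeq2 1.42.0 was an alternative. Classes of a tumor share an animal, and sums of the same tumor departed together from their class means, with r of 0.203 to 0.688 over 26 pairs, against -0.599 to 0.332 over 52 pairs of other tumors. The 9 members are all named, and genes of the other lists by their calls, with 1 result not reported here. Members and lists were chosen with earlier results of these data known.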

Additional observations from a re-analysis of the deposited data

How the results depend on the processing

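With 3 animals, sums of as few as 15 cells and gene counts under 10 UMIs limit the precision in tumors 2 and 3. The share of cells with a UMI moved beyond its interval in 41 of 45 cases when cells were not thinned. Among the member fold changes under alternatives, 765 kept direction and side of the threshold, 31 lost and 49 gained a call, and 19 turned. With the replicate block the members called were 7 in neutrophil-like cells against the mean of the other classes (5 without), 2 in classical (0), 4 in nonclassical (2), 4 in C1q (2), 7 in dendritic-like cells (3), 1 in C1q against classical (0) and 7 in neutrophil-like against classical cells (3), and all blocked calls that differ are given above. The block raised the calls over all genes as well. Of 4273 genes it called 1529 (913 without), 213 (43), 519 (155), 731 (295), 872 (378), 296 (46) and 1115 (465) in the same order. The DESeq2 Wald test gave 2 in classical cells. DESeq2 size factors gave 1 in nonclassical cells, and resolution 0.6 gave 1, while leaving no classical class and so no value for its comparisons. No filter gave 2 in classical, 4 in C1q, 5 in dendritic-like and 7 in neutrophil-like against classical cells. No integration gave 1 in classical, nonclassical and C1q cells each, and corrected counts 2, 1 and 1. Classes set cell by cell gave 0 in nonclassical and 1 in C1q, dendritic-like and neutrophil-like against classical cells each. Without the shallow C1q cluster, an alternative chosen after seeing the data, the count was 2 in classical and 5 in neutrophil-like against classical cells. Leaving out each tumor gave 4 to 6 in neutrophil-like, 0 to 2 in classical, 0 to 3 in nonclassical, 1 to 4 in C1q, 1 to 3 in dendritic-like cells, 0 to 1 in C1q against classical and 0 to 4 in neutrophil-like against classical cells. Calls over all genes ranged from 439 to 1529 (913 in the main analysis), 9 to 216 (43), 40 to 519 (155), 155 to 731 (295), 124 to 872 (378), 0 to 158 for nonclassical against classical (12), 1 to 296 (46) and 71 to 1115 (465), in the order of the comparisons above.

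The direction turned in 19 cases, none called in the main analysis or the alternative. Leaving out each tumor, Cebpd ran from -0.48 to 0.28 in classical cells, -0.89 to 0.51 in nonclassical cells and -0.94 to 0.79 between them, Irf8 from -0.25 to 1.56 in classical and -1.43 to 0.018 in nonclassical cells, Maf from -0.32 to 2.08 in nonclassical cells, and Nr4a1 from -0.43 to 0.75 in neutrophil-like against classical cells. Maf in nonclassical cells was at -0.079 with the block, -0.38 without integration, -0.10 on corrected counts and -0.020 with classes set cell by cell. The last also gave -0.30 for Irf8 in classical, -0.13 for Klf4 and -0.029 for Irf8 in C1q cells, and -0.15 for Klf4 between the monocytes. Cebpa between the monocytes was at 0.042 on corrected counts. Irf8 in C1q against classical cells was at -0.24 without integration, and Nr4a1 in neutrophil-like against classical cells at -0.051 without integration and -0.17 with at least 20 cells per sum. The cause was not tested.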
